A study of Homo sapiens with 15 samples.

Results

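Hypoxia response and glycolysis were followed in spheroids of MDA-MB-231, an established triple-negative breast cancer cell line, through 39 genes chosen by symbol: 3 genes of the HIF transcription factor, 15 HIF targets, 3 carriers of glucose and lactate and 18 glycolytic enzymes. All 39 were found among the 59608 symbols of the table, and each averaged 10 normalised reads or more over the 15 libraries, as did 15233 genes in all. Spheroids formed for 72 h in 96-well ultra-low attachment plates were given ZJ-101, a man-made, shortened relative of superstolide A, a compound found in a marine sponge, at 0.5, 5, 50 or 500 nM, or 0.1% DMSO as the vehicle, for 24 h. The 96 spheroids of 1 plate, with the cells that had come loose, were pooled as 1 biological replicate, and each of the 5 groups held 3 plates. RNA of the whole pool was sequenced, so fewer cells with a transcript and less of it per cell cannot be told apart. The comparison asks how transcripts of the low-oxygen and glucose-using programs stood at each dose.

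In cells with enough oxygen, prolyl hydroxylases mark the alpha subunits of HIF for destruction through VHL, and in low oxygen these subunits persist, pair with ARNT and switch on genes that carry their short core motif. Much of this control acts on the protein, so the HIF1A and EPAS1 transcripts are not a measure of HIF activity. HIF targets include pH regulators, blood vessel signals, mitophagy receptors and most glycolytic enzymes, and the cores of spheroids are known to be poor in oxygen. The paper gives no oxygen measurement of these spheroids. It reports a moderate loss of adhesion at 24 h that grew with dose. Effects of dose and of lost spheroid structure therefore cannot be told apart here. Breast cancer cells of this kind take up much glucose and release much lactate even in air, through GLUT1 (SLC2A1) and MCT4 (SLC16A3). The protocol and the methods name different products of DMEM for the culture, so the glucose supply of these spheroids cannot be stated here.

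Promoter sequences show the letters that HIF targets and glycolytic enzymes share. RefSeq windows on GRCh38.p14 were found for 34 of the 39 genes (64 windows, several for genes with more than 1 start). VEGFA, BNIP3L, NDRG1, STC1 and SLC2A3 are named here without a window. The HIF core motif was searched as ACGTG or GCGTG on either strand, which reads CACGT or CACGC on the printed strand, in the 250 bases before each start. CACGTG holds the motif on both strands and is also the E-box of MYC and MXI1. A match was present in 39 of the 64 windows of these genes (60.9%), against 43.2% of all 35116 windows. The share was 80.0% of 15 windows of HIF targets and 56.4% of 39 windows of glycolytic enzymes. A match is a description of the letters and no evidence of binding, and the windows of 1 gene can overlap. Matches farther from the start of ENO1, ALDOC and LDHA are not shown.

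The stretches with matches nearest to the start are printed for 8 genes that moved in different directions, with matches in capitals, each 5′ to 3′ on the strand of the gene. ADM (chr11:10304960-10304988, + strand), BNIP3 (chr10:131982011-131982078, - strand) and ENO1 (chr1:8878742-8878770, - strand) were higher at 500 nM. ALDOC (chr17:28576907-28577015, - strand), CA9 (chr9:35673898-35673926, + strand), PFKFB4 (chr3:48556953-48556981, - strand) and LDHA (chr11:18394464-18394506, + strand) were lower, and PGK1 (chrX:78104025-78104081, + strand) did not pass the test at that dose.
ADM: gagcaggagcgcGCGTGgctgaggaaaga
BNIP3: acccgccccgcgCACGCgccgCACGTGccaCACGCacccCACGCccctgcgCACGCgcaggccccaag
ENO1: ggagctgaggggGCGTGccccggaggcgg
ALDOC: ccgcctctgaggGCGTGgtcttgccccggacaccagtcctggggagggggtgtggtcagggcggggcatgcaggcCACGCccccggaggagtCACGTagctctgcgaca
CA9: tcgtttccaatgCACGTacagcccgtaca
PFKFB4: tgagttgggcatGCGTGgtcggaggccgg
LDHA: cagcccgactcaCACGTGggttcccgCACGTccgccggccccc
PGK1: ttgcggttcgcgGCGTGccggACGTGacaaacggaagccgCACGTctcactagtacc
Genes with matches thus stood on both sides of the response and in between. A match was present in 8 of 13 windows of the members that were higher at 500 nM, in 14 of 25 windows of those that were lower and in 17 of 26 windows of those not called.

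Values are normalised read counts, and log2 fold changes are differences of log2(normalised count + 1) from a limma model fitted to all 15233 genes, given with their standard error and called at a Benjamini-Hochberg adjusted p under 0.05 over all of these genes. Libraries held 7773325 to 10065633 reads in genes. VIM, CD44 and the others of a list of 6 markers that the line expresses summed to 37968.8 to 43123.3 normalised reads a library. A list of 6 markers that it should lack summed to 405.3 to 503.1, most of it EPCAM with 204 to 309 reads, while PGR had none and ESR1 at most 1.89. A list of 14 fibroblast markers summed to 5190.5 in replicate 2 at 0.5 nM, 3796.7 in replicate 2 at 5 nM and 4285.8 in replicate 1 at 500 nM, against 669.7 to 1406.3 in the other 12 libraries. Member calls that were lost without these 3 libraries are named beside their values, and the part of such transcripts in the results was not tested.

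No member was called at 0.5 nM, where 0.0722% of all genes were. Of the 39 members, 7 had an unadjusted p under 0.05 there, and edgeR and DESeq2 on recovered reads called 0. At 5 nM, 13 members were called (8 higher and 5 lower), with 6.91% of all genes called, 3.63% higher and 3.28% lower. At 50 nM, 22 were called (5 higher and 17 lower), with 20.6% of all genes called, 10.9% higher and 9.66% lower. At 500 nM, 25 were called (7 higher and 18 lower), with 32.4% of all genes called, 16.2% in each direction. Many members are abundant, and abundant genes are called more often: of the 1958 genes that averaged 1000 reads or more, 60.4% were called at 500 nM, as were 16 of the 22 members of that abundance. These are 72.7% of the abundant members. How much of the share called goes with abundance was not tested, and no share of abundant genes is given at 5 or 50 nM. The direction and size of single genes carry the description. Of the 39 members, 6 were called at 500 nM with an absolute log2 fold change of at least 0.5 (EPAS1, CA9, CA12, EGLN3, SLC2A1 and ALDOC), with 11.3% of all genes. DESeq2 on recovered reads did not call VEGFA, KDM3A, STC1, PFKP, ALDOA or ALDOC at 5 nM, PFKL, PFKFB3 or TPI1 at 50 nM, or STC1, SLC2A3 or PFKFB3 at 500 nM.

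**Figure D1:**
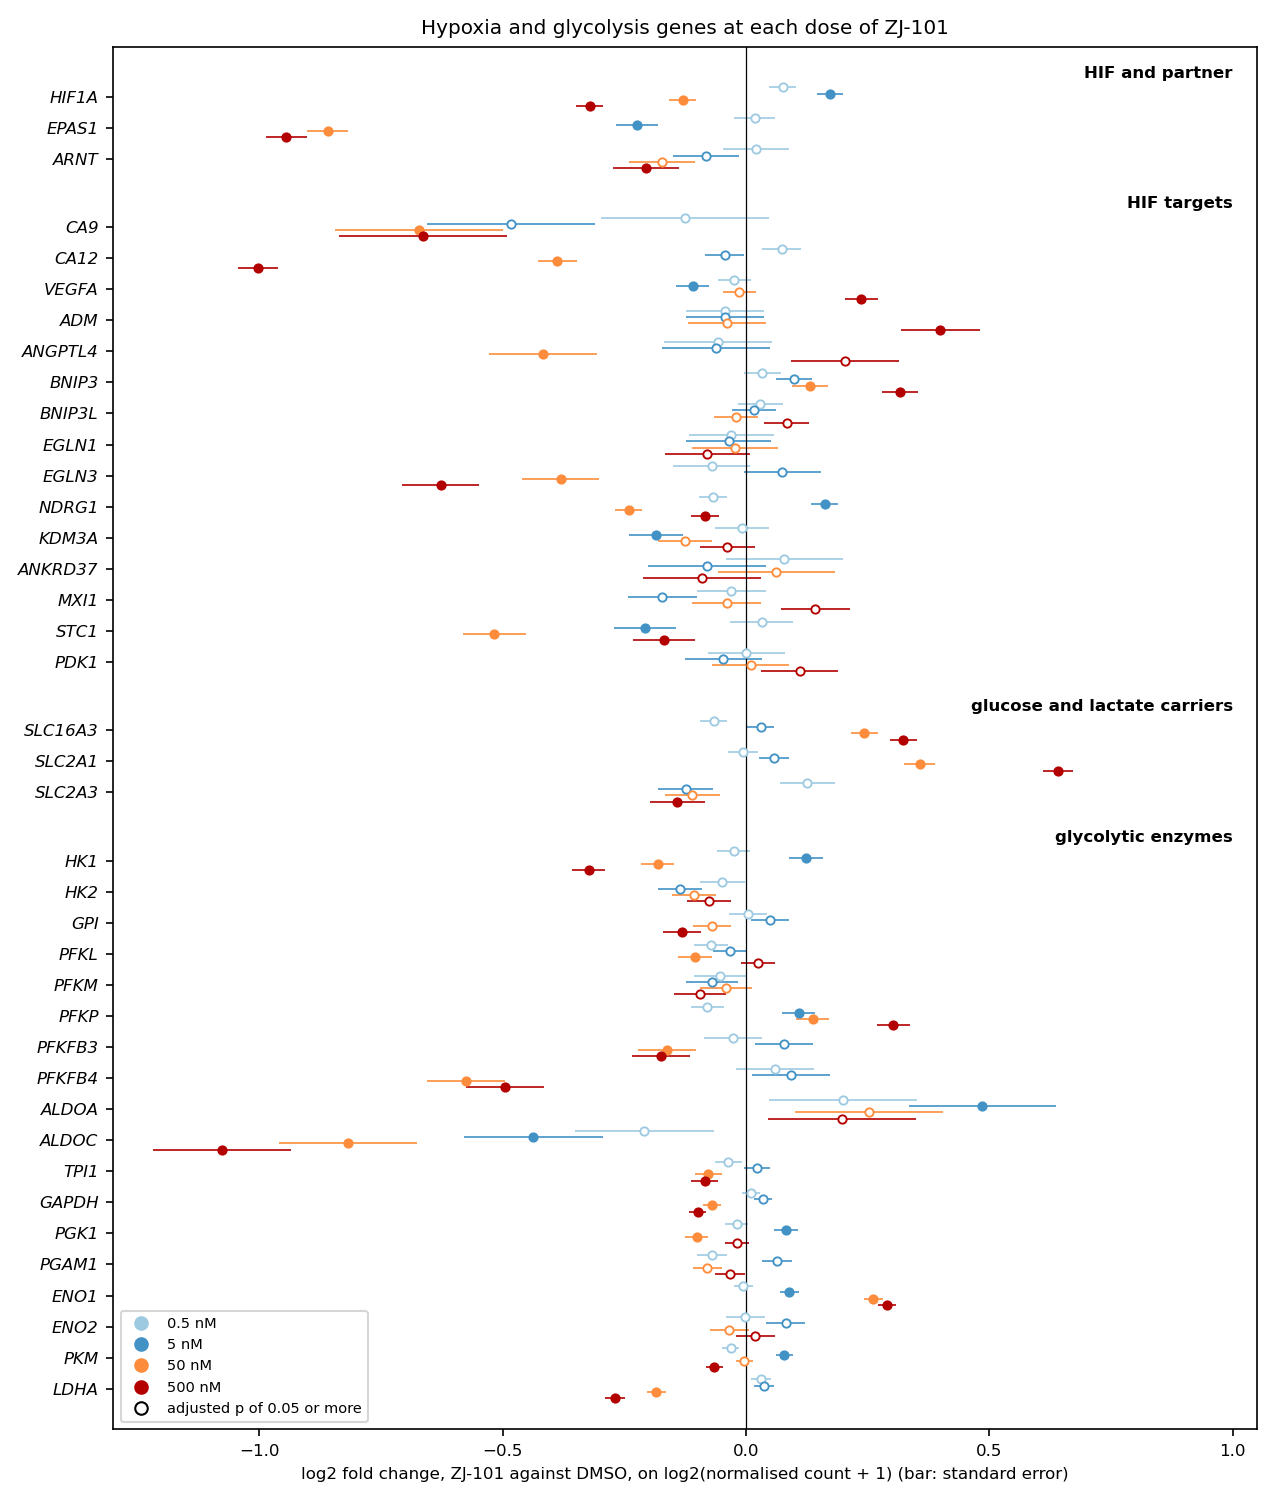
Log2 fold change of each of the 39 genes at 0.5, 5, 50 and 500 nM ZJ-101 against DMSO (x axis, log2(normalised count + 1), bars are standard errors), grouped by role down the page; filled points passed the test. At 500 nM the points run from ALDOC at -1.08 and CA12 at -1.003 to SLC2A1 at 0.64, and all enzymes but ALDOC and PFKFB4 lie between -0.32 and 0.30.

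The 3 genes of the factor itself were lower at 500 nM, and HIF1A turned round with dose. HIF1A (chr14:61695513-61748259, hg38), which encodes the oxygen-controlled alpha subunit, had 5726, 5821 and 5812 normalised reads with DMSO, 6075, 5980 and 6236 at 0.5 nM, 6612, 6709 and 6257 at 5 nM, 5193, 5364 and 5308 at 50 nM, with 4619, 4569 and 4705 at 500 nM. All 3 libraries at 5 nM lay above all DMSO libraries, and all at 50 and 500 nM lay below them. HIF1A thus had a log2 fold change of 0.17 ± 0.03 at 5 nM (limma adjusted p = 1.3e-06), -0.13 ± 0.03 at 50 nM (8.2e-05) and -0.32 ± 0.03 at 500 nM (4.2e-19).

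EPAS1 (chr2:46293667-46386697), the alpha subunit of HIF-2, was called lower at 5, 50 and 500 nM. It had 1822, 1798 and 1787 normalised reads with DMSO, 1766, 1810 and 1900 at 0.5 nM, 1543, 1604 and 1487 at 5 nM, 921, 1002 and 1061 at 50 nM, with 949, 912 and 948 at 500 nM. From 5 nM on no library overlapped DMSO. Its log2 fold change was -0.22 ± 0.04 at 5 nM (limma adjusted p = 9.0e-05), -0.86 ± 0.04 at 50 nM (4.8e-34) and -0.94 ± 0.04 at 500 nM (8.4e-38), and between 500 and 50 nM it was -0.08 ± 0.04 (0.23). ARNT, the shared beta subunit, had 368, 352 and 384 reads at 500 nM, against 413, 455 and 406 with DMSO, a log2 fold change of -0.20 ± 0.07 (limma adjusted p = 0.013) that was no longer called without DMSO replicate 2 (-0.15) or without 500 nM replicate 2 (-0.17).

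The ratio of EPAS1 to HIF1A within a library was 0.202 ± 0.003 at 500 nM, against 0.312 ± 0.006 with DMSO (SD, n = 3), with no overlap between the groups. Across the doses it was 0.299 at 0.5 nM, 0.237 at 5 nM and 0.188 at 50 nM. This is a ratio of read counts and not of molecules.

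Of the 15 HIF targets, 3 rose at 500 nM (VEGFA, ADM and BNIP3), 5 fell (CA9, CA12, EGLN3, NDRG1 and STC1) and 7 did not pass the test. Their median log2 fold change was -0.04, against 0.00 over all genes. At 50 nM, 1 rose and 6 fell, and at 5 nM, 1 rose and 3 fell. Of all genes, 16.2% were called in each direction at 500 nM. The shares were 10.9% higher and 9.66% lower at 50 nM, and 3.63% higher and 3.28% lower at 5 nM.

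The pH regulators fell. CA12 (chr15:63321378-63381846), a carbonic anhydrase of the cell surface, had 899, 940 and 870 normalised reads at 500 nM, against 1799, 1795 and 1834 with DMSO. At 50 nM it had 1390, 1383 and 1374, all below DMSO, and at 5 nM 1737, 1834 and 1698, which overlaps DMSO. At 0.5 nM it had 1920, 1947 and 1845, all above DMSO, but was not called. The log2 fold change was -0.39 ± 0.04 at 50 nM (limma adjusted p = 3.3e-14) and -1.003 ± 0.04 at 500 nM (3.3e-42), and 500 nM lay below 50 nM by a log2 difference of -0.61 ± 0.04 (1.9e-25).

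CA9, the related carbonic anhydrase that is a standard tissue marker of hypoxia, was near the low end of all members. It had 51.2, 46.3 and 38.99 reads at 500 nM, against 74.1, 65.0 and 78.3 with DMSO, a log2 fold change of -0.66 ± 0.17 (limma adjusted p = 0.0011). At 50 nM it had 35.7, 48.8 and 52.3 (-0.67 ± 0.17, 0.0017), and at 5 nM 50.4, 59.4 and 45.5 (-0.48 ± 0.17, 0.074), all below DMSO. Of its exon bases, 35.7% overlap another gene on the opposite strand (ARHGEF39), and the strand setting of the counting is not given, so reads of that gene could be among so few. CA12 had 20.1 ± 2.4 times the reads of CA9 at 500 nM, against 25.1 ± 2.2 times with DMSO.

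The prolyl hydroxylase EGLN3 (chr14:33924227-34462774), which is itself a HIF target and marks HIF for destruction, had 195, 199 and 218 reads at 500 nM, against 320, 322 and 303 with DMSO. The log2 fold change was -0.38 ± 0.08 at 50 nM (limma adjusted p = 6.6e-05) and -0.63 ± 0.08 at 500 nM (4.4e-11), with no overlap. Its relative EGLN1 was not called at any dose: 248, 266 and 271 reads at 500 nM, against 234, 322 and 279 with DMSO, and a 95% interval of the log2 difference of -0.25 to 0.10. Of the exon bases of EGLN1, 55.8% are shared with an unnamed gene model on the same strand.

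VEGFA, ADM and BNIP3 rose at the highest dose. VEGFA (chr6:43770184-43786487), the main growth factor of blood vessels, had 3687, 3452 and 3431 reads at 500 nM, against 2922, 2984 and 3060 with DMSO (0.24 ± 0.03, limma adjusted p = 4.8e-09). At 5 nM it had 2912, 2714 and 2687, all below DMSO (-0.11 ± 0.03, 0.031), a call that was lost without DMSO replicate 2 (-0.11) or 3 (-0.09), without 5 nM replicate 2 (-0.10) or 3 (-0.09), and without the 3 libraries with fibroblast transcripts (-0.10).

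ADM, which encodes the vasodilator peptide adrenomedullin, had 407, 377 and 375 reads at 500 nM, against 295, 282 and 300 with DMSO (0.40 ± 0.08, limma adjusted p = 2.1e-05), and at 50 nM it had 296, 264 and 295. BNIP3, a receptor for the removal of mitochondria, had 2167, 2162 and 2220 reads at 500 nM, against 1708, 1733 and 1818 with DMSO (0.32 ± 0.04, limma adjusted p = 2.9e-12). It was the one HIF target called higher at 50 nM (0.13 ± 0.04, 0.0051). Its relative BNIP3L was not called, with 1189, 1174 and 1240 reads at 500 nM, against 1090, 1176 and 1134 with DMSO.

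A dip at 50 nM marked another set of targets. NDRG1, a stress-responsive differentiation gene, had 5185, 4879 and 5010 reads with DMSO, 4742, 4861 and 4772 at 0.5 nM, 5549, 5676 and 5631 at 5 nM, 4112, 4354 and 4286 at 50 nM, with 4814, 4792 and 4612 at 500 nM. It was higher at 5 nM (0.16 ± 0.03, limma adjusted p = 1.5e-05) and lower at 50 nM (-0.24 ± 0.03, 8.4e-12). At 500 nM it was lower by less (-0.08 ± 0.03, 0.015), which was not called without DMSO replicate 1 (-0.06) or 500 nM replicate 3 (-0.06).

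STC1, a secreted glycoprotein that acts on calcium and phosphate, had 540, 529 and 526 reads with DMSO. It was already called lower at 5 nM, with 462, 489 and 432 reads, all below DMSO. The call at 5 nM was lost without any 1 of 5 libraries. STC1 had 371, 396 and 349 reads at 50 nM and 475, 484 and 461 at 500 nM. Against DMSO its log2 fold change was -0.52 ± 0.06 at 50 nM (limma adjusted p = 6.9e-11), and 500 nM was higher than 50 nM by 0.35 ± 0.06 (1.1e-05). The smaller STC1 difference at 500 nM (-0.17 ± 0.06, 0.034) was lost without any 1 of 5 libraries, at values of -0.15 without 500 nM replicate 3, -0.17 without 500 nM replicate 1, and -0.16, -0.17 and -0.18 without DMSO replicates 1, 2 and 3. It was also lost without the 3 libraries with fibroblast transcripts (-0.17).

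ANGPTL4, a secreted inhibitor of lipoprotein lipase, had 147, 105 and 128 reads at 50 nM, against 185, 149 and 171 with DMSO (-0.42 ± 0.11, limma adjusted p = 0.0028), a call lost without 50 nM replicate 2 (-0.29). At 500 nM ANGPTL4 had 198, 194 and 188, above 50 nM by 0.62 ± 0.11 (8.3e-06), with a difference from DMSO of 0.20 ± 0.11 (0.17). Of the 15 targets, 6 were called higher and 2 lower in the step of 500 against 50 nM, in which 12.7% of all genes were called (5.65% higher and 7.04% lower).

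The remaining targets were called against DMSO at 1 dose or at none. KDM3A, a histone demethylase, was called only at 5 nM, with 548, 579 and 558 reads against 631, 636 and 648 with DMSO (-0.18 ± 0.06, limma adjusted p = 0.026), and lost that call without DMSO replicate 2 (-0.19) or 3 (-0.17) and without 5 nM replicate 1 (-0.17) or 3 (-0.18). PDK1, which restrains the entry of pyruvate into mitochondria, had 295, 299 and 339 reads at 500 nM, against 264, 313 and 289 with DMSO, with an interval of the log2 difference of -0.05 to 0.27. ANKRD37 and the MYC antagonist MXI1 were not called against DMSO at any dose, though MXI1 was called higher at 500 nM without the 3 libraries with fibroblast transcripts. ANKRD37, at 112 ± 9.9 reads at 500 nM against 120 ± 9.6 with DMSO, overlaps UFSP2 on the opposite strand over 40.3% of its exon bases.

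**Figure D2:**
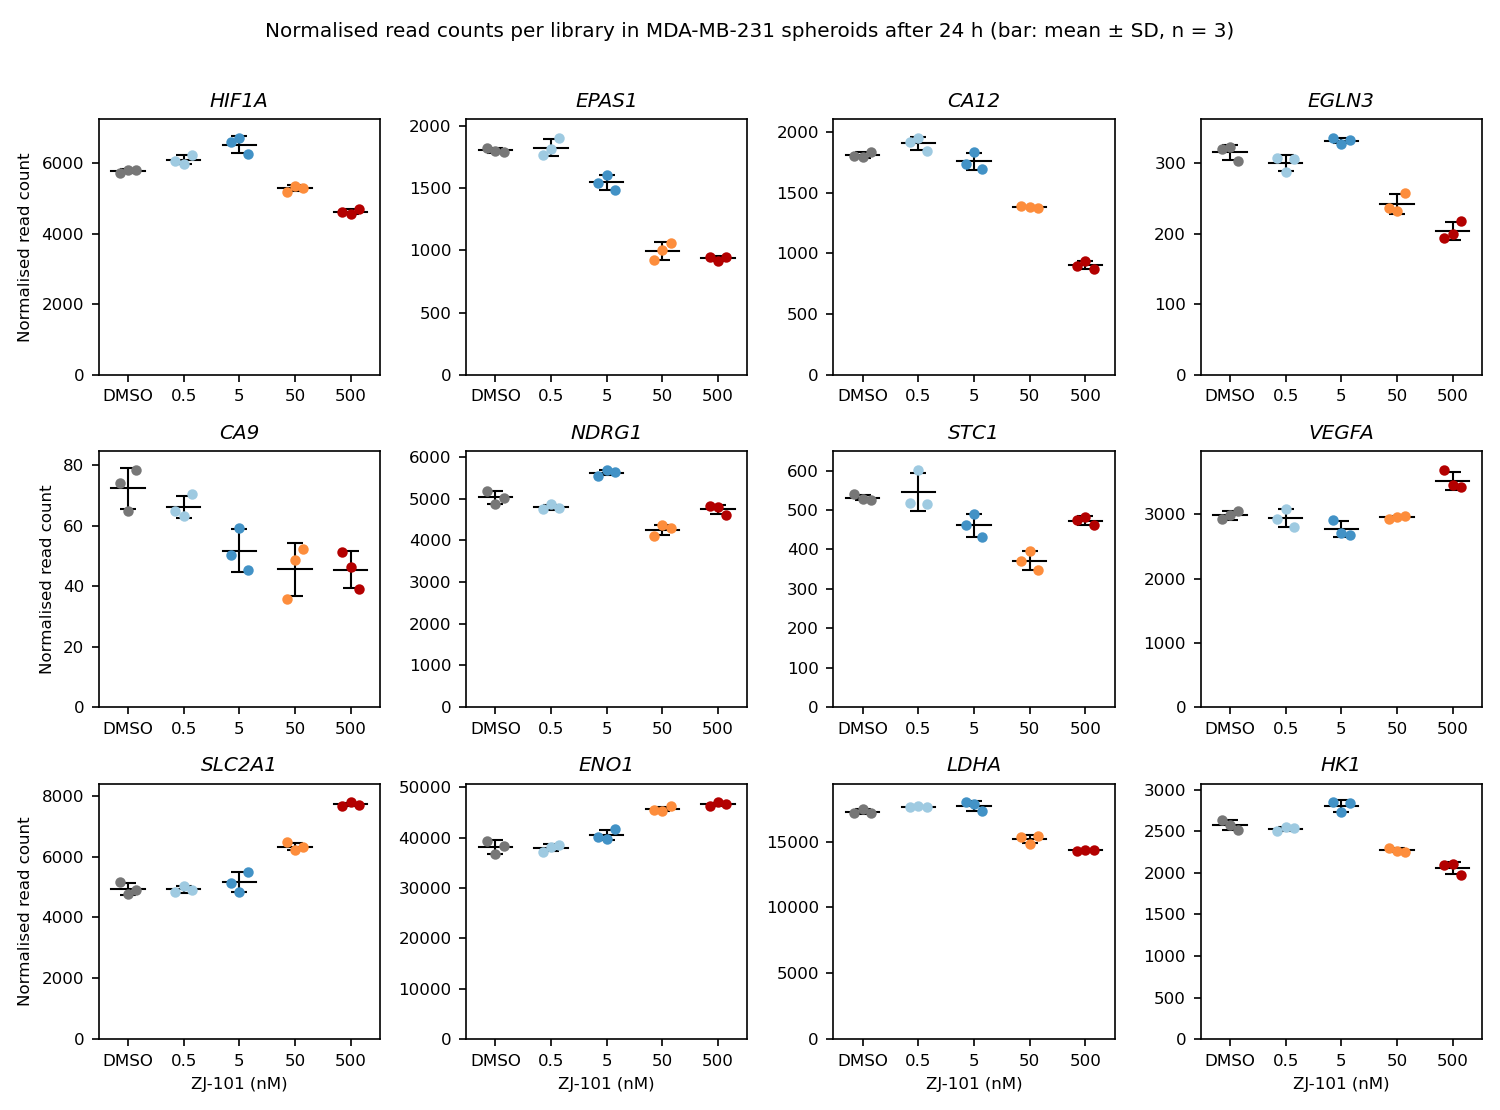
Normalised read counts of 12 genes in each library (points) with DMSO and 0.5, 5, 50 and 500 nM ZJ-101 (x axis); bars are the mean ± SD of 3 plates and every y axis starts at 0. EPAS1 and CA12 fall to about 940 and 900 at 500 nM, NDRG1 and STC1 are lowest at 50 nM, and SLC2A1 climbs to between 7661 and 7782.

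Among the carriers, the glucose importer and the lactate exporter rose together with dose. SLC2A1 (chr1:42925353-42958893) had 7661, 7782 and 7707 normalised reads at 500 nM, against 5159, 4777 and 4907 with DMSO. At 50 nM it had 6468, 6230 and 6301, and at 5 nM 5139, 4835 and 5493, which overlaps DMSO. Its log2 fold change was 0.36 ± 0.03 at 50 nM (limma adjusted p = 9.6e-14) and 0.64 ± 0.03 at 500 nM (4.4e-24), the largest rise among the 39 genes. Without the 3 libraries with fibroblast transcripts it was also called at 5 nM.

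SLC16A3, the main lactate exporter of glycolytic cells, had 9213, 9164 and 9004 reads at 500 nM, against 7782, 6934 and 7193 with DMSO (0.32 ± 0.03, limma adjusted p = 1.2e-15), and at 50 nM 8728, 8521 and 8645 (0.24 ± 0.03, 8.9e-11). SLC2A3, the neuronal glucose transporter that many tumours also use, did not follow. It had 539, 552 and 565 reads at 500 nM, against 602, 635 and 590 with DMSO (-0.14 ± 0.06, limma adjusted p = 0.045), a difference not called without DMSO replicate 1 (-0.15) or 2 (-0.11), without 500 nM replicate 1 (-0.12) or 2 (-0.14), or without the 3 libraries named above (-0.12). The ratio of SLC2A3 to SLC2A1 was 0.072 ± 0.002 at 500 nM, against 0.123 ± 0.009 with DMSO.

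Glycolytic enzymes were called in both directions. Of the 18, at 500 nM, 2 rose (PFKP and ENO1), 9 fell (HK1, GPI, PFKFB3, PFKFB4, ALDOC, TPI1, GAPDH, PKM and LDHA) and 7 did not pass the test, with a median log2 fold change of -0.08. At 5 nM the balance was the other way, with 6 higher (HK1, PFKP, ALDOA, PGK1, ENO1 and PKM), 1 lower (ALDOC) and a median of 0.07. At 50 nM, 2 were higher and 9 lower, with a median of -0.08. Among these 9, the call of PFKFB3 was lost in 8 of 15 fits with 1 library left out. That of TPI1 was lost in 4 and that of PFKL in 3. Of all genes, 3.63% were called higher and 3.28% lower at 5 nM. The shares were 10.9% and 9.66% at 50 nM, and 16.2% in each direction at 500 nM. At 5 nM, DESeq2 on recovered reads did not call PFKP, ALDOA or ALDOC. A fit of only the 2 groups compared did not call PFKP, PGK1 or PKM there. In the step of 50 against 5 nM, 12 enzymes fell and 1 rose, where 18.5% of all genes were called (9.51% higher and 8.96% lower).

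**Figure D3:**
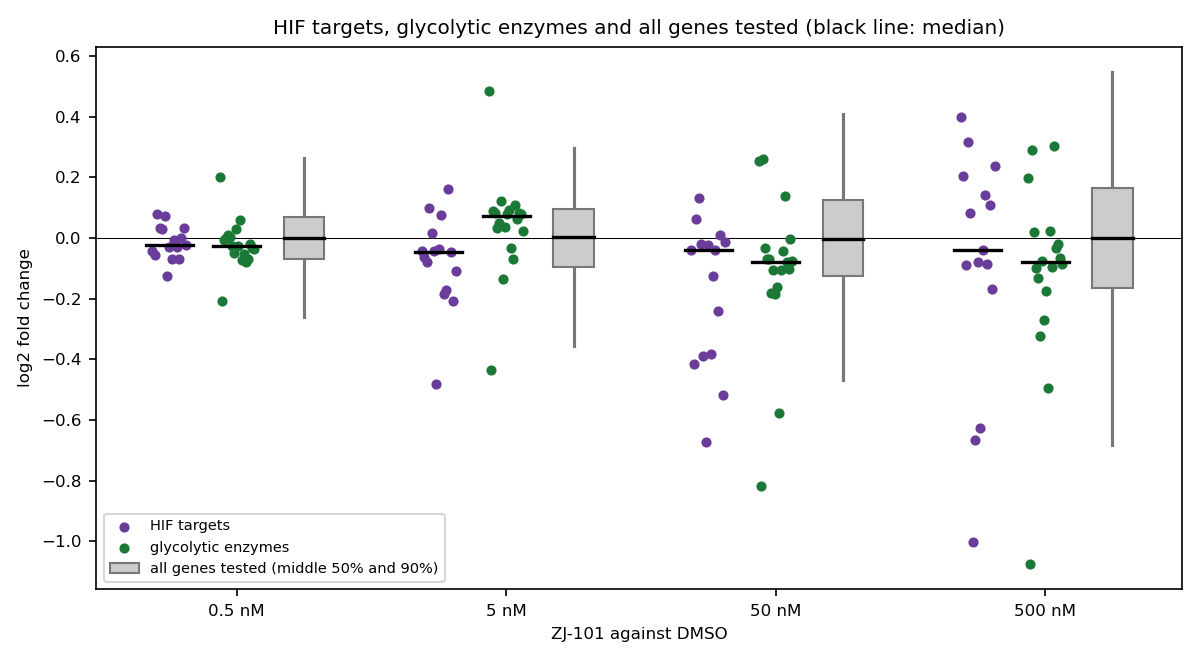
Log2 fold changes at each dose of ZJ-101 against DMSO for the 15 HIF targets and the 18 glycolytic enzymes (points), with the middle 50% (box) and 90% (line) of all 15233 genes tested; black lines are medians. The enzymes have a median of 0.07 at 5 nM and -0.08 at 50 and 500 nM, and the targets spread from -1.003 to 0.40 at 500 nM.

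HIF targets and enzymes are set side by side as a description. At 500 nM, 8 of 15 targets and 11 of 18 enzymes were called. Of all genes 32.4% were called, and of those averaging 1000 reads or more 60.4%. Most enzymes but only a minority of the targets average that many reads, so the second share is not a like base for the targets. Log2 fold changes ran from -1.003 to 0.40 for targets and from -1.08 to 0.30 for enzymes. The median absolute log2 fold change was 0.17 for targets and 0.12 for enzymes, against 0.16 over all genes. At 5 nM the median was -0.05 for targets and 0.07 for enzymes, and at 50 nM -0.04 for targets and -0.08 for enzymes. No test of the difference between the lists was made, since their genes share the same libraries and were chosen with results in view. With the 3 carriers counted among the HIF targets, 11 of 18 were called at 500 nM, and with the carriers counted among the enzymes, 14 of 21.

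At the entry to the pathway, HK1 (chr10:69269984-69401884), the widespread hexokinase, had 2631, 2575 and 2516 normalised reads with DMSO, 2503, 2549 and 2535 at 0.5 nM, 2846, 2726 and 2840 at 5 nM, 2294, 2268 and 2245 at 50 nM, with 2097, 2102 and 1976 at 500 nM. It was above DMSO in all libraries at 5 nM and below it in all at 50 and 500 nM. The log2 fold change was -0.18 ± 0.03 at 50 nM (limma adjusted p = 1.1e-05) and -0.32 ± 0.03 at 500 nM (3.7e-14). The rise of 0.12 ± 0.03 at 5 nM (0.012) was 0.11 and no longer called without DMSO replicate 3 and without 5 nM replicate 1 or 3.

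HK2, the hexokinase most often tied to HIF and to tumours, was not called at any dose, with 1194, 1123 and 1115 reads at 500 nM, against 1270, 1144 and 1204 with DMSO and an interval of the log2 difference of -0.17 to 0.02, though TMM scaling, edgeR and a fit with the replicate number as a block called it lower at 5 nM. The ratio of HK2 to HK1 was 0.469 ± 0.021 with DMSO, 0.391 ± 0.012 at 5 nM and 0.556 ± 0.019 at 500 nM. GPI, the next enzyme, had 2004, 1927 and 1922 reads at 500 nM, against 2234, 2129 and 2054 with DMSO (-0.13 ± 0.04, limma adjusted p = 0.0054), and was not called without DMSO replicate 1 (-0.10).

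Of the phosphofructokinases, PFKP was the one called higher against DMSO. PFKP, the platelet-type isoform, had 3254, 3424 and 3360 reads at 500 nM, against 2878, 2603 and 2663 with DMSO (0.30 ± 0.03, limma adjusted p = 3.0e-13), and was also called at 50 nM (0.14 ± 0.03). Its call at 5 nM (0.11 ± 0.03) was lost without DMSO replicate 2 (0.08) or 3 (0.09) and without 5 nM replicate 1 (0.08) or 3 (0.11). PFKL, the liver type, had 2723, 2767 and 2608 reads at 500 nM, against 2811, 2553 and 2603 with DMSO, and PFKM, the muscle type, 877, 793 and 788 against 905, 836 and 883, neither of them called at that dose. PFKL was called lower at 50 nM (mean 2470, against 2656 with DMSO) and higher in the step of 500 against 50 nM. Its call at 50 nM was lost without DMSO replicate 1 and without 50 nM replicate 1 or 2. The ratio of PFKP to PFKL was 1.24 ± 0.05 at 500 nM, against 1.02 ± 0.002 with DMSO.

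The PFKFB enzymes set the level of fructose 2,6-bisphosphate, the activator of phosphofructokinase. PFKFB4 had 315, 329 and 297 reads with DMSO, 215, 204 and 211 at 50 nM, and 220, 235 and 211 at 500 nM. It had a log2 fold change of -0.58 ± 0.08 at 50 nM (limma adjusted p = 3.6e-09) and of -0.50 ± 0.08 at 500 nM (1.3e-07), with no overlap. PFKFB3 was lower by less, with 777, 793 and 689 reads at 500 nM, against 939, 808 and 805 with DMSO (-0.17 ± 0.06, 0.019), and was not called without DMSO replicate 1 (-0.10) or 500 nM replicate 3 (-0.11).

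The aldolases held the largest fall. ALDOC (chr17:28573115-28576948), the aldolase best known from brain, had 56.4, 60.5 and 53.9 reads at 500 nM, against 133, 101.2 and 132 with DMSO. At 5 nM it had 86.8, 84.5 and 96.5, and at 50 nM 73.3, 57.4 and 75.3, all below DMSO. The log2 fold change was -0.82 ± 0.14 at 50 nM (limma adjusted p = 1.8e-06) and -1.08 ± 0.14 at 500 nM (2.7e-10). The fall at 5 nM (-0.44 ± 0.14, 0.043) was not called without DMSO replicate 1 (-0.37) or 3 (-0.38), without 5 nM replicate 1 (-0.42) or 2 (-0.40), or without the 3 libraries with fibroblast transcripts (-0.40).

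ALDOA, normally among the most abundant enzymes of the pathway, had only 62.4 ± 4.8 reads with DMSO and 71.7 ± 4.5 at 500 nM. Of its exon bases, 42.8% are shared on the same strand with another gene model in GENCODE, so its level here is uncertain, and so are its single call at 5 nM (0.49 ± 0.15, limma adjusted p = 0.032) and its ratio to ALDOC. That call was lost without DMSO replicate 1 (0.48) or 2 (0.43), without any 1 of the 5 nM libraries (0.47, 0.50 and 0.49), and without the 3 libraries with fibroblast transcripts (0.50).

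In the lower part of the pathway ENO1 rose at 500 nM, while the other enzymes fell or did not pass the test at that dose. GAPDH, often used as a reference gene, had 25555, 25410 and 25429 normalised reads at 500 nM, against 27953, 26328 and 27593 with DMSO. All 3 libraries lay below DMSO, and the log2 fold change was -0.10 ± 0.02 (limma adjusted p = 3.5e-06). TPI1 had a like difference (-0.09 ± 0.03, 0.010), not called without DMSO replicate 1 or 3 or without 500 nM replicate 1, nor without the 3 libraries with fibroblast transcripts (-0.07 each).

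PGK1, a classical HIF target that yields the first ATP of the pathway, had 7968, 7934 and 8065 reads with DMSO, 7659, 8006 and 7990 at 0.5 nM, 8360, 8605 and 8402 at 5 nM, 7500, 7370 and 7472 at 50 nM, with 7877, 7821 and 7964 at 500 nM. It was higher at 5 nM (0.08 ± 0.02, limma adjusted p = 0.022), lower at 50 nM (-0.10 ± 0.02, 6.7e-04) and near DMSO at 500 nM (-0.02 ± 0.02, 0.62). The call at 5 nM was lost without DMSO replicate 2 (0.08), without 5 nM replicate 2 (0.07) and without the 3 libraries named above (0.07). PGAM1 was not called against DMSO at any dose.

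ENO1 (chr1:8861000-8879190), the main enolase, had 46301, 47009 and 46615 reads at 500 nM, against 39414, 36706 and 38361 with DMSO. It was higher at 5 nM (0.09 ± 0.02, limma adjusted p = 0.0016), at 50 nM (0.26 ± 0.02, 1.9e-14) and at 500 nM (0.29 ± 0.02, 2.9e-16). Its neuronal relative ENO2 was not called against DMSO, with 1498, 1440 and 1495 reads at 500 nM, against 1464, 1428 and 1482 with DMSO. The ratio of ENO2 to ENO1 was 0.032 ± 0.001 at 500 nM, against 0.038 ± 0.001 with DMSO.

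PKM, the pyruvate kinase gene whose splice forms these counts do not separate, had 34009, 33837 and 34118 reads at 500 nM, against 36604, 34683 and 35381 with DMSO (-0.06 ± 0.02, limma adjusted p = 0.0015), and at 5 nM it was higher (0.08 ± 0.02, 7.3e-04). LDHA (chr11:18394560-18408425), which turns pyruvate to lactate, had 14271, 14386 and 14333 reads at 500 nM, against 17176, 17465 and 17183 with DMSO. At 50 nM it had 15320, 14840 and 15456, and no library at either dose overlapped DMSO. LDHA had a log2 fold change of -0.18 ± 0.02 at 50 nM (limma adjusted p = 3.6e-13) and -0.27 ± 0.02 at 500 nM (2.3e-22).

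The 18 enzymes together took 1.70% ± 0.03 (SD, n = 3) of all reads in genes with DMSO, 1.77% ± 0.02 at 5 nM and 1.71% ± 0.004 at 500 nM, with all 3 libraries at 5 nM above all DMSO libraries. ENO1 made up 24.97% to 25.47% of the reads of the 18 enzymes with DMSO, 29.7% to 29.9% at 50 nM and 30.5% to 30.8% at 500 nM. The other 17 enzymes summed to 105512 ± 99 normalised reads at 500 nM, against 112737 ± 2505 with DMSO. The 15 HIF targets took 0.176% to 0.180% of reads with DMSO, 0.160% to 0.162% at 50 nM and 0.173% to 0.177% at 500 nM, so their sum was lowest at 50 nM and did not overlap the other groups there. Abundant targets weigh most in it, such as NDRG1 (mean 4251 at 50 nM, 5025 with DMSO) and CA12 (1382 and 1809). At 50 nM, 12 of the 15 log2 fold changes were negative and 3 positive. The median log2 fold change of the targets was -0.04 at both 50 and 500 nM. With 3 libraries a group no exact test of such a sum can go below p = 0.1.

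**Figure D4:**
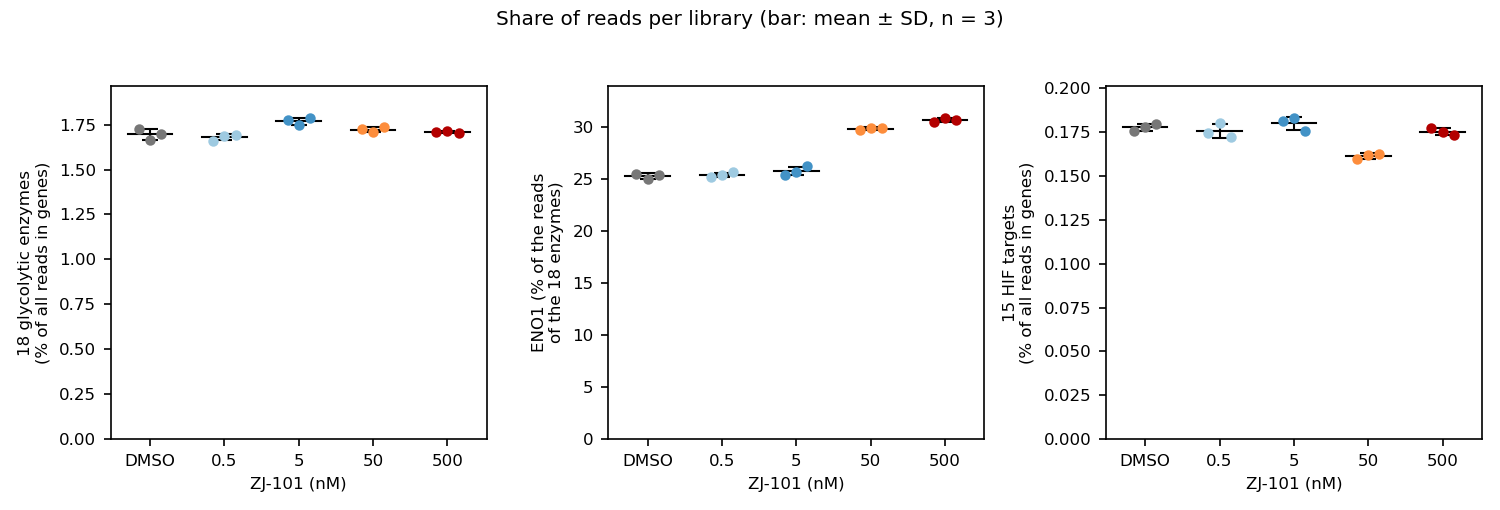
Share of all reads in genes taken by the 18 glycolytic enzymes (left) and the 15 HIF targets (right), and share of the enzyme reads from ENO1 (middle), in each library by group; bars are mean ± SD of 3 plates. ENO1 goes to about 30% of the enzyme reads at 50 and 500 nM, against about 25% with DMSO.

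Per kilobase of merged exon, the order of the enzymes and carriers changed little. GAPDH led with 10628 ± 33 normalised reads per kb at 500 nM and 11390.5 ± 356 with DMSO, followed by ENO1 with 8942 ± 68 at 500 nM and 7316 ± 262 with DMSO, and by PKM and LDHA in both groups. SLC2A1, at 1167 ± 9 per kb at 500 nM against 748 ± 29 with DMSO, stood above HIF1A at 500 nM (899 ± 13 per kb) and below it with DMSO (1123 ± 10 per kb). CA9 was low in both, at 28.5 ± 3.9 per kb against 45.4 ± 4.3, and PDK1 and ALDOA were the lowest in both.

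The ratio of 2 related genes within 1 library barely depends on the scaling of libraries. For all 10 pairs examined, the 3 ratios at 500 nM and the 3 with DMSO did not overlap, 2 of them higher (HK2 to HK1 and PFKP to PFKL) and 8 lower. Single genes did not overlap between these groups in 41.4% of all genes, the pairs were chosen with results in view, and those with CA9, EGLN1 or ALDOA share the uncertainty of these genes. A two-sided exact permutation test gave p = 0.1 for each, the smallest that 3 against 3 libraries allow, and 0.1 after adjustment over the 10 pairs. The pair of PFKFB4 to PFKFB3 was 0.295 ± 0.011 at 500 nM, against 0.371 ± 0.036 with DMSO, and that of BNIP3L to BNIP3 was 0.550 ± 0.008, against 0.647 ± 0.028.

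**Figure D5:**
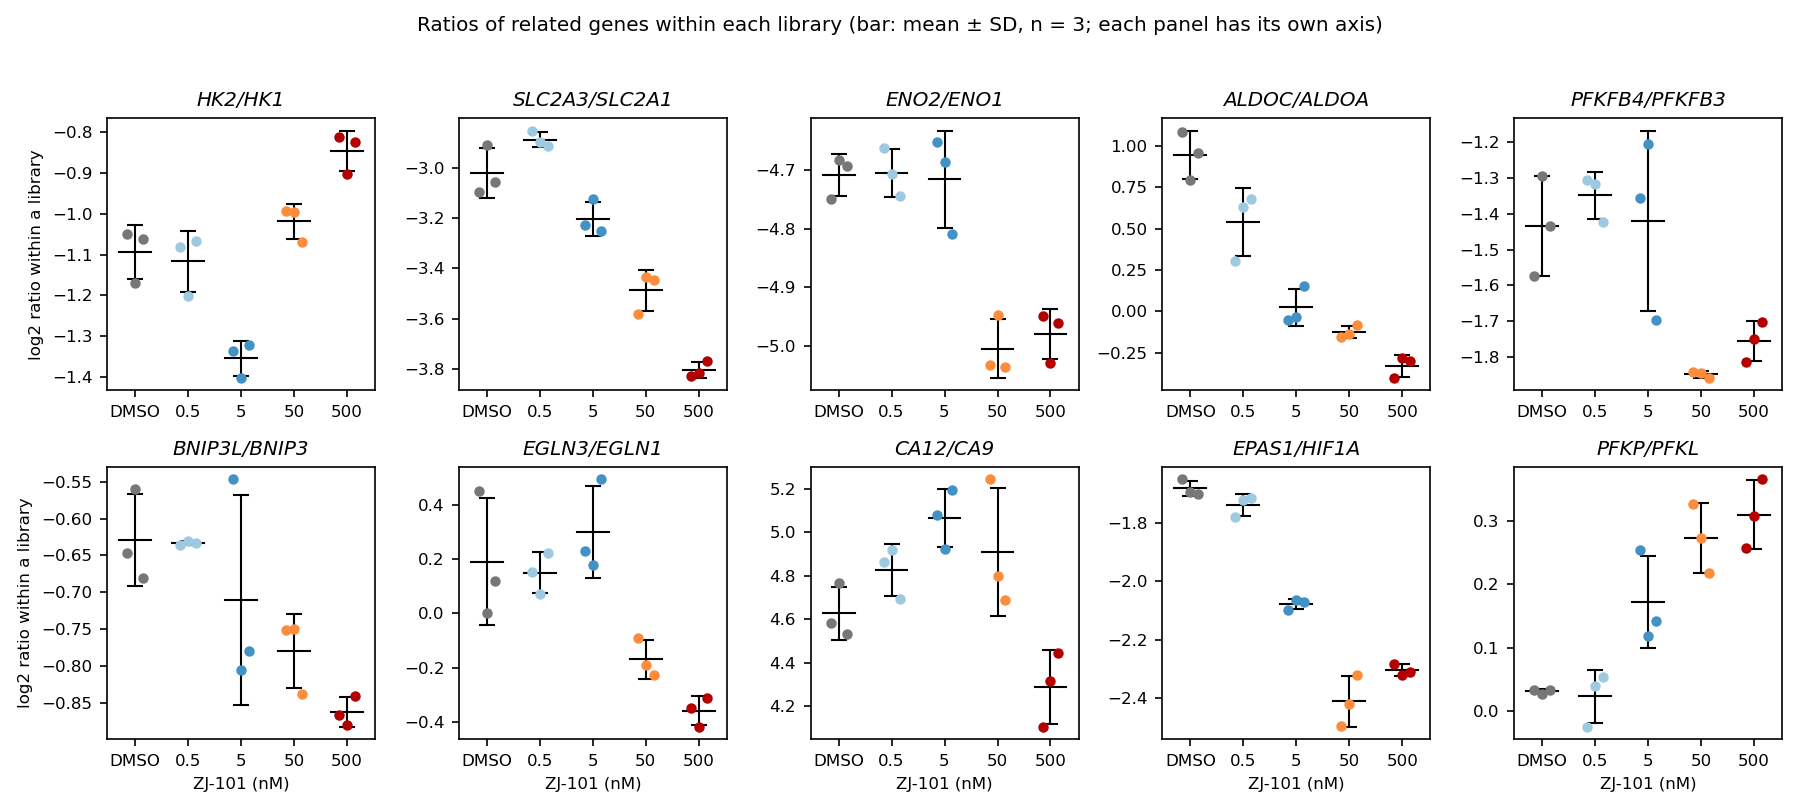
Log2 ratio of 10 pairs of related genes within each library (y axis, with a pseudocount of 1; each panel has its own range) with DMSO and at each dose of ZJ-101; bars are mean ± SD of 3 plates. The EPAS1 to HIF1A ratio drops to about -2.30 at 500 nM, against -1.68 with DMSO, and HK2 to HK1 is lowest at 5 nM.

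Among the 39 genes, 6 were called in opposite directions at 2 doses against DMSO (HIF1A, VEGFA, NDRG1, HK1, PGK1 and PKM). This was so for 1.02% of all 15233 genes and for 5.01% of the 1958 genes that averaged 1000 reads or more, as all 6 members did. The doses share the DMSO libraries, so the calls at 2 doses are not independent. With only the 2 groups compared, 3 of the 6 kept both calls, and those of VEGFA, PGK1 and PKM at 5 nM were lost. Without DMSO replicate 2 or 3, 5 nM replicate 2 or 3, or the 3 libraries with fibroblast transcripts, 4 of the 6 kept both. HIF1A, NDRG1, HK1, PGK1 and PKM were higher at 5 nM and lower at a higher dose, and VEGFA was lower at 5 nM and higher at 500 nM. A slope per 10-fold dose over the 12 treated libraries was called for 21 members (7 up and 14 down), with 27.9% of all genes (14.0% up and 13.9% down). Between neighbouring doses, 13 members were called in the step of 5 against 0.5 nM (9 higher and 4 lower). Of all genes, 7.06% were called there (3.69% higher and 3.37% lower). In the step of 50 against 5 nM, 23 members were called (4 higher and 19 lower), with 18.5% of all genes (9.51% higher and 8.96% lower). In that of 500 against 50 nM, 17 were called (11 higher and 6 lower), with 12.7% of all genes (5.65% higher and 7.04% lower). No dose gave a call against DMSO for BNIP3L, EGLN1, ANKRD37, MXI1, PDK1, HK2, PFKM, PGAM1 or ENO2.

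Hypoxia genes outside the 39 also changed in both directions. Of 30 tested genes of a further list, 7 were higher and 10 lower at 500 nM, with a median of -0.03, where 32.4% of all genes were called (16.2% in each direction). BHLHE40, a repressor of the clock and of differentiation, had 844, 826 and 830 normalised reads at 500 nM, against 1436, 1366 and 1405 with DMSO (-0.75 ± 0.04, limma adjusted p = 1.4e-29). ERO1A, which drives disulfide formation in the endoplasmic reticulum, had 727, 759 and 789, against 1166, 1325 and 1281 (-0.73 ± 0.05, 2.1e-26). PLOD2, a collagen lysyl hydroxylase, had 519, 489 and 508, against 694, 814 and 755 (-0.57 ± 0.06, 5.8e-16).

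CITED2, which competes with HIF for its coactivator, rose to 2466, 2379 and 2492 reads at 500 nM, against 1714, 1839 and 1726 with DMSO (0.48 ± 0.04, limma adjusted p = 1.9e-19). These 4 genes were taken for their small p at 500 nM, so their separation from DMSO is a description.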

How the data were processed

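Per the labels and methods, poly(A) RNA with an integrity number above 9.5 was sequenced paired-end, aligned with HISAT2 to hg38 and counted per GENCODE gene with htseq-count. The authors deposited a table of DESeq2-normalised counts, a signal equal to read counts divided by a size factor per library. Versions, strand setting and GENCODE release are not given in the sources used here. Multiplying by 1 constant per library made 100.0% of values whole within 0.001, so reads were recovered. The 4 deposited tables of the authors' own comparisons (fold changes, p-values) were not used.

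Genes with a mean of at least 10 were tested on log2(normalised count + 1) with limma 3.58.1 (trend, robust; R 4.3.3) over all 15 libraries and 5 groups, two-sided, with Benjamini-Hochberg adjustment over all 15233 genes. In a simulation of 500 nM against DMSO on 15233 genes, 147 of 200 changed genes were recovered (73.5%), with 11 false calls. In the data 4933 genes were called at this dose, and recovery with so many changed genes was not tested. The share is not split by size of change, so recovery of changes as small as those of most members cannot be read from it. The alternatives were edgeR 4.0.16 and DESeq2 1.42.0 on recovered reads, TMM scaling, other filters and pseudocounts, a replicate block, the 2 groups alone, and libraries left out. Exact tests used scipy 1.17.1. Positions and exon overlaps are from GENCODE 44 on hg38.

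Per-library values were to be given for HIF1A, EPAS1 and ARNT, for members called at 500 nM with an absolute log2 fold change of at least 0.5, for members called in opposite directions at 2 doses, for CA9, VEGFA, SLC2A1, PGK1, LDHA and GAPDH, and for up to 4 genes with the smallest p at 500 nM of each further list. All other genes given with values were chosen after their values were seen. The members and lists were chosen with earlier results of these data known. The p-values measure the spread between plates of 1 cell line.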

Additional observations from a re-analysis of the deposited data

How the results depend on the processing

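None of the 60 calls of members against DMSO reversed its direction under any alternative, and values that were not called were not followed for their sign. These calls were all kept with TMM scaling, a mean of at least 50 and a pseudocount of 5, 58 were kept with edgeR, 54 without a filter, 53 with only the 2 groups compared, 53 without the 3 libraries with fibroblast transcripts, and 48 with DESeq2. The calls at 5 nM depended most on the processing. There the 13 members called became 8 with only the 2 groups compared and 7 with DESeq2. The 4 HIF targets became 2 without a filter, 2 with only the 2 groups compared and 1 with DESeq2, and the 7 enzymes became 4 with only the 2 groups compared, 4 with DESeq2 and 4 without the 3 libraries with fibroblast transcripts. The cause was not tested.

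A minimum log2 change of 0.5 left 0 members at 5 nM (0 HIF targets and 0 enzymes), 5 at 50 nM (2 HIF targets and 2 enzymes) and 6 at 500 nM (3 HIF targets and 1 enzyme). It left 0 members in the step of 5 against 0.5 nM, 2 in that of 50 against 5 nM, 2 in that of 500 against 50 nM, and 0 for the slope, since most changes are smaller. Of all 15233 genes it left 116 at 5 nM, 750 at 50 nM and 1726 at 500 nM. In the same steps, in that order, it left 116, 606 and 399 of all genes, and 150 for the slope.

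Leaving out 1 library at a time gave 0 members at 0.5 nM, 7 to 13 at 5 nM, 18 to 24 at 50 nM and 19 to 25 at 500 nM. It gave 9 to 14 in the step of 5 against 0.5 nM, 19 to 23 in that of 50 against 5 nM, 14 to 17 in that of 500 against 50 nM and 17 to 21 for the slope. HIF targets ranged over 1 to 4, 6 to 7 and 6 to 8 at 5, 50 and 500 nM, and enzymes over 3 to 7, 8 to 13 and 8 to 11. The member count at 5 nM was 8 without DMSO replicate 2, 7 without DMSO replicate 3, 7 without 5 nM replicate 1 and 8 without 5 nM replicate 3.

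No pairing of plates by replicate number was seen. Deviations of libraries with the same number correlated at -0.12 to 0.176 (median 0.003, 30 pairs). Those with other numbers correlated at -0.176 to 0.169 (60 pairs). The labels state no pairing, and these values cannot show that there was none. With the replicate block 0, 14, 21 and 25 members were called at 0.5, 5, 50 and 500 nM. Low counts limit CA9, ALDOA and ALDOC, whose standard errors are several times those of abundant enzymes.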

Other observations

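Other genes of glucose metabolism were called in both directions at the highest dose. Of 35 tested genes of a further list, 8 were higher and 11 lower at 500 nM and 16 did not pass the test, with a median log2 fold change of -0.02, where 32.4% of all genes were called. Among those higher, PFKFB2, a relative of PFKFB3, had 451, 430 and 472 normalised reads at 500 nM, against 297, 311 and 310 with DMSO (0.56 ± 0.07, limma adjusted p = 9.6e-11). PDP1, which activates pyruvate dehydrogenase, had 1390.3, 1496 and 1443, against 1204, 1137 and 1072 (0.34 ± 0.04, 7.4e-11). HKDC1, SLC2A12, SLC16A1, PCK2, FBP1 and TXNIP were also higher, by log2 fold changes of 0.12 to 0.86. TKT, the transketolase of the pentose phosphate pathway, had 5363, 5352 and 5373 normalised reads at 500 nM, against 7285, 6577 and 7036 with DMSO (-0.38 ± 0.03, limma adjusted p = 1.1e-23). PGD, which forms NADPH in the same pathway, had 1214, 1216 and 1219, against 1594, 1477 and 1580 (-0.35 ± 0.04, 1.6e-12). TALDO1, the transaldolase of that pathway, was also lower (-0.23 ± 0.04, limma adjusted p = 5.2e-08).

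ADPGK, a glucokinase that uses ADP, had 256, 241 and 258 reads at 500 nM, against 407, 457 and 467 with DMSO (-0.81 ± 0.07, limma adjusted p = 9.8e-18). BSG, which brings lactate carriers to the cell surface, had 10997, 11256 and 11133, against 13327, 12217 and 12633 (-0.19 ± 0.02, 2.7e-11), while its partner SLC16A3 rose. TXNIP, which restrains glucose uptake, was the one gene of these lists called at 0.5 nM (0.16 ± 0.03, 0.0075), and was lower at 5 nM (-0.16 ± 0.03) and higher at 500 nM (0.12 ± 0.03).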
